A study of Mus musculus with 18 samples.

Results

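The 10 genes described here encode the cap'n'collar (CNC) transcription factors Nfe2l1 (NRF1), Nfe2l2 (NRF2), Nfe2l3 (NRF3) and Nfe2 (p45), the CNC repressors Bach1 and Bach2, the small Maf partners Maff, Mafg and Mafk, and Keap1, the cytoplasmic inhibitor of NRF2. They were taken by gene name from a table of read counts for 35275 mouse genes, and all 10 were found in it. RNA was sequenced from cell lines of malignant peripheral nerve sheath tumors (MPNSTs) raised in wild-type 129 Sv/Jae mice. An adenovirus carrying Cas9 under a CMV promoter, which is not limited to 1 cell type, was injected into the sciatic nerve with guides against Nf1 and p53 (the Nf1/p53 dKO) or with guides that cut Nf1 and the p16 and p19 locus Cdkn2a (the Nf1/Cdkn2a dKO). Nf1 was therefore targeted in both genotypes, and no line with intact tumor suppressors was compared. Each genotype had 3 lines, each line came from 1 tumor, and each line was sequenced from 3 cultures, which gave 18 libraries.

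CNC factors bind DNA as heterodimers with a small Maf protein, at sites known as antioxidant response elements. NRF2 activates genes of glutathione, thioredoxin and NADPH metabolism, and under basal conditions Keap1 brings it to the Cul3 ubiquitin ligase for degradation. NRF1 is an endoplasmic reticulum protein that drives proteasome genes after it has been cleaved. Bach1 and Bach2 compete for the same sites as repressors and are released by heme, and the small Mafs lack a transactivation domain, so that the partner decides what a dimer does. Much of this control is at the level of protein, which read counts do not measure.

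Library totals ran from 19560535 to 28312207 counts (median 23149777), and line totals from 65206479 to 73065228. Cultures of 1 line come from the same tumor, so their counts were summed and the line was the unit of comparison (n = 3 lines per genotype). Nf1/p53 dKO line 3 stood apart from the Nf1/Cdkn2a dKO lines most, with correlations of log2 level over all genes tested of 0.889 to 0.901, against 0.903 to 0.938 for the other Nf1/p53 dKO lines. Trp53, which encodes p53, was at 94.1, 67.5 and 58.7 CPM (the count scaled to the library size after TMM) across the Nf1/p53 dKO lines and at 247, 246 and 185 CPM across the Nf1/Cdkn2a dKO lines (adjusted p = 0.0361). Cdkn2a overlapped, at 363, 279 and 42.9 CPM against 169, 392 and 285 CPM, and Nf1 overlapped as well, so the counts of these genes do not tell the genotypes apart. Gene counts do not show whether a transcript carries a disrupting mutation. Sox10, a defining Schwann cell marker, had at most 9 counts in every line, while the mesenchymal markers summed to 6820 to 17040 CPM, with Vim the most abundant.

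Promoter sequences are shown first because matches to the CNC and small Maf site fell in the promoters of all 3 small Mafs and of Nfe2l2 itself. The letters TGACNNNGC, the core of the antioxidant response element, were searched on both strands of the 250 bases before each RefSeq gene start (GRCm38.p6). Promoters were given for 9 of the 10 genes, and the exception was Nfe2. The letters were present in 4 of the 9 genes, against 11.515% of 27025 genes. By window they were present in 4 of the 15 windows of these genes, against 10.161% of 32851 promoter windows. The matches are in capitals, on the strand of the gene, and the sequences are cut to at most 25 bases around each match.
Nfe2l2, chr2:75704870-75704913, minus strand: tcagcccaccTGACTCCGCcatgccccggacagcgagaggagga
Maff, chr15:79346484-79346542, plus strand: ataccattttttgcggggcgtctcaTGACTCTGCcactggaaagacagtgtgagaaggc
Mafg, chr11:120633736-120633794, minus strand: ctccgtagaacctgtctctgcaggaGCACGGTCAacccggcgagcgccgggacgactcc
Mafk, chr5:139791498-139791535, plus strand: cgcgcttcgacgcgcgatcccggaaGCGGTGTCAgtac
In Nfe2l2 and Maff the motif was read on the gene's own strand, beginning 240 and 112 bases before the start. Maff has 3 starts in the promoter set, and only the window of 1 of them held the match. In Mafg and Mafk it lay on the opposite strand, with its capitals beginning 222 and 13 bases before the start. No match was present in the windows of Nfe2l1, Nfe2l3, Bach1, Bach2 or Keap1. The only Bach2 window, chr4:32417185-32417434, lies inside the gene, which begins at 32238804 in GENCODE M21. The bases before that first start of Bach2 were not searched. The AP-1 letters TGACTCA, which lack the final GC of the element, were found for no member and in 4.463% of windows. A match is a run of letters and not evidence of binding.

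To place NRF2 among its paralogs and the Bach repressors, levels were divided by the merged exon length of each gene in GENCODE M21. Nfe2l1 and Nfe2l2 led in every line, at 50.5 ± 8.87 and 47.5 ± 16.5 CPM per kb (SD, n = 6 lines). The small Mafs followed, with Maff at 21.5 ± 5.88, Mafg at 16.1 ± 2.68 and Mafk at 11.1 ± 4.19 CPM per kb. Keap1 was at 9.18 ± 1.75 and Bach1 at 6.75 ± 1.85 CPM per kb. The other members were scarce, Bach2 at 0.283 ± 0.231, Nfe2l3 at 0.124 ± 0.0589 and Nfe2 at 0.0642 ± 0.0225 CPM per kb.

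The ranges over the 6 lines separated neighbors in this order at only 2 steps, between Nfe2l2 and Maff and between Bach1 and Bach2, where the means differed 23.8-fold. Keap1 was above Bach1 in 6 of 6 lines although their ranges overlapped. Nfe2l1 was above Nfe2l2 in all 3 Nf1/p53 dKO lines and in 1 of the 3 Nf1/Cdkn2a dKO lines. The order of the leading pair depended on the length used, since dividing by the longest transcript put Nfe2l2 at 72.8 and Nfe2l1 at 59.1 CPM per kb. Nfe2l1 and Nfe2l2 together with Bach1 made up nearly all of the summed CNC level per kb. The share of Nfe2l2 in that sum was 40.4, 34.7 and 44.2% across the Nf1/p53 dKO lines and 52.2, 45.5 and 48.9% across the Nf1/Cdkn2a dKO lines. The share of Bach1 was 6.40 ± 1.35% and 6.37 ± 0.283% (SD, n = 3 lines).

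**Figure D1:**
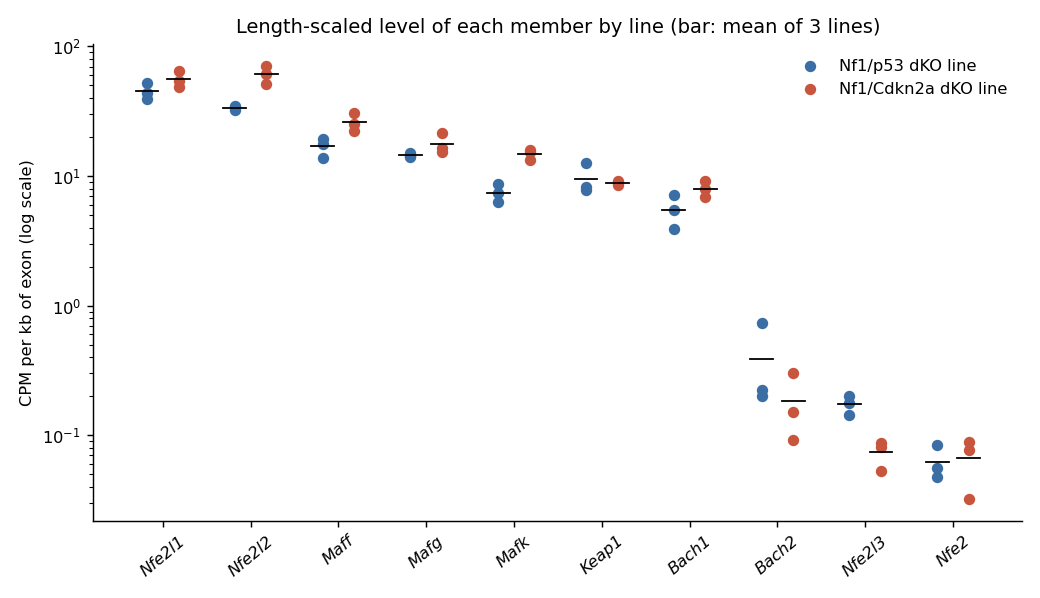
Level of each gene in CPM per kb of merged exon (log axis), 1 point per line, with Nf1/p53 dKO lines in blue and Nf1/Cdkn2a dKO lines in red and a bar at the mean of 3 lines. Nfe2l1 and Nfe2l2 lie highest, and Bach2, Nfe2l3 and Nfe2 lie below 1 CPM per kb in every line.

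Between genotypes, Mafk rose in the Nf1/Cdkn2a dKO, and Nfe2l2 was higher by a similar amount with an adjusted p just past the threshold of 0.05. Mafk was the only 1 of the 10 members called higher, and 0 were called lower, by edgeR's quasi-likelihood test (p adjusted by Benjamini-Hochberg). Over all 15207 genes tested, 0.638% were called higher and 1.16% lower. Without adjustment, 4 of the 10 members had a p under 0.05 (Nfe2l2, Mafk, Maff and Nfe2l3), as did 3400 of the 15207 genes. DESeq2 on the same 6 lines called 2 members higher (Mafk and Nfe2l2) and 0 lower. The log2 fold change, positive for higher expression in the Nf1/Cdkn2a dKO, was above 0 for 7 members and below 0 for 3. Nfe2 alone among them changed sign with the scaling, to -0.049 with raw total counts.

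**Figure D2:**
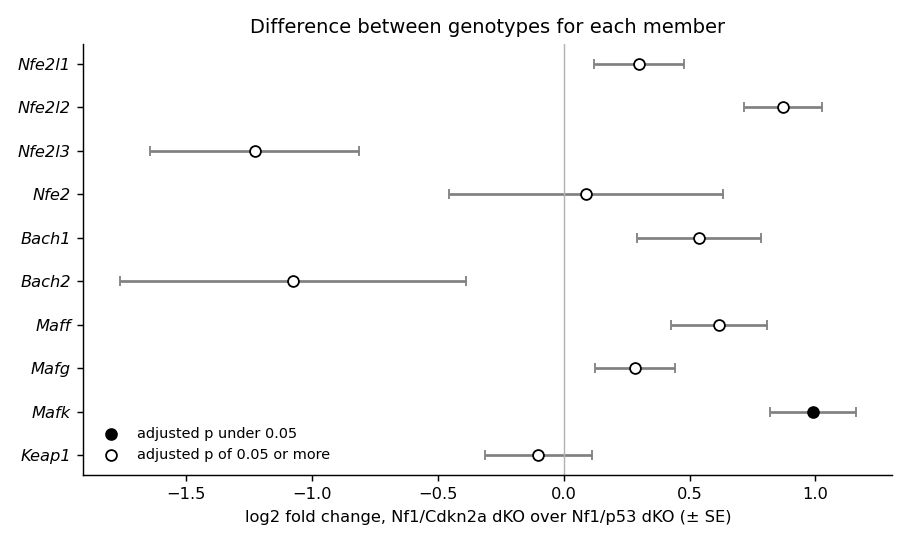
Log2 fold change of each gene between genotypes with its standard error (edgeR, 3 lines per genotype), with a filled point for an adjusted p under 0.05. Mafk is the filled point, at 0.99, and Nfe2l2 is at 0.87.

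Among the activators, Nfe2l2 was at 129, 122 and 131 CPM across the Nf1/p53 dKO lines and at 234, 196 and 270 CPM across the Nf1/Cdkn2a dKO lines. The Nf1/p53 dKO lines lay close together, and every Nf1/Cdkn2a dKO line was above them. The means were 127 ± 4.46 and 233 ± 37.1 CPM (SD, n = 3 lines), a 1.83-fold difference (log2 0.87 ± 0.16 SE, adjusted p = 0.0512). At the level of cultures, the 9 Nf1/p53 dKO libraries had 122.84 to 133.49 CPM and the 9 Nf1/Cdkn2a dKO libraries 189.06 to 275.96 CPM. The adjusted p was 0.00096 with DESeq2 on the 6 lines and 0.0491 with no filter on low counts, and 0.0812 to 0.154 with any 1 line left out.

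Nfe2l1 was at 240, 286 and 213 CPM against 263, 296 and 351 CPM. The genotypes overlapped (log2 0.30 ± 0.18 SE, adjusted p = 0.37). Its log2 fold change was 0.19 without Nf1/Cdkn2a dKO line 3, where it was highest, and 0.17 with raw total counts. Nfe2l3 and Nfe2, the latter a factor of erythroid cells and megakaryocytes, were near the lower limit of detection. Nfe2l3 had 41, 30 and 43 counts across the Nf1/p53 dKO lines and 15, 18 and 10 across the Nf1/Cdkn2a dKO lines, each summed over 3 cultures. Every Nf1/p53 dKO line was above every Nf1/Cdkn2a dKO line, and the test gave a log2 fold change of -1.23 ± 0.42 SE (adjusted p = 0.155). Nfe2 had 13, 10 and 18 counts against 6, 16 and 17, and no difference was detectable at this depth (log2 0.09 ± 0.55 SE, adjusted p = 0.939). Erythroid and megakaryocyte markers summed to 2.59 to 4.36 CPM and 2.70 to 4.10 CPM in the respective genotypes, with 5 of 8 at no more than 9 counts in any line (Gata1, Pf4, Gp9, Hbb-bs and Hbb-bt). The most abundant, Itga2b, had 157 to 297 counts per line. Hba-a1 had 20, 6 and 78 counts against 0, 0 and 87, highest in the line with most Nfe2 of each genotype. Alas2 went the other way, with 15, 14 and 8 counts against 13, 19 and 5, lowest in those lines. The part of these markers in the Nfe2 level was not tested.

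Of the repressors, Bach1 was at 33.7, 44.2 and 24.1 CPM across the Nf1/p53 dKO lines and at 48.8, 42.9 and 56.5 CPM across the Nf1/Cdkn2a dKO lines. The genotypes overlapped through Nf1/p53 dKO line 2, and the difference did not pass the test (log2 0.54 ± 0.25 SE, adjusted p = 0.259). Without Nf1/p53 dKO line 3, where Bach1 was lowest, the log2 fold change was 0.35. Bach2, best known from B cells, was at 2.20, 7.28 and 1.98 CPM against 1.51, 0.909 and 3.02 CPM. Its higher Nf1/p53 dKO mean came from line 2, and the log2 fold change of -1.08 ± 0.69 SE (adjusted p = 0.4) became -0.19 without that line (adjusted p = 0.886) and -1.65 without Nf1/Cdkn2a dKO line 3 (adjusted p = 0.325). The summed leukocyte markers stood at 1.90, 1.40 and 1.44 CPM against 12.9, 11.7 and 19.9 CPM. Of these sums, the single gene Laptm5 made 0.0849 to 0.503 and 11.0 to 18.6 CPM. The sums were lowest of the Nf1/p53 dKO in the line with most Bach2 and in the order of Bach2 in the Nf1/Cdkn2a dKO. The part of these markers in the Bach2 level was not tested. Bach2 also shares 5.40% of its exon length with an antisense gene, Bach2os, which had 67 counts over all libraries.

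With TMM on line totals, the small Mafs were all higher in every Nf1/Cdkn2a dKO line than in any Nf1/p53 dKO line. For Mafg this depended on the scaling, as given below. Mafk was at 28.7, 33.7 and 24.7 CPM across the Nf1/p53 dKO lines and at 51.5, 61.4 and 60.3 CPM across the Nf1/Cdkn2a dKO lines. The means were 29.0 ± 4.48 and 57.7 ± 5.46 CPM (SD, n = 3 lines), a 1.99-fold difference (log2 0.99 ± 0.17 SE, adjusted p = 0.047). The log2 fold change ran from 0.89 to 1.12 when any 1 of the 6 lines was left out, but the adjusted p was then 0.0718 to 0.144, so that the call was lost each time. It was also lost when every line had to hold at least 10 counts (adjusted p = 0.0508) and with raw total counts in place of TMM (adjusted p = 0.0503), a scaling tried after the data were seen.

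Maff was at 46.1, 49.8 and 35.9 CPM against 64.9, 58.1 and 79.2 CPM (log2 0.62 ± 0.19 SE, adjusted p = 0.128). Mafg was at 79.3, 80.5 and 85.2 CPM against 92.8, 120 and 85.9 CPM, and Nf1/Cdkn2a dKO line 3 barely cleared Nf1/p53 dKO line 3 (log2 0.28 ± 0.16 SE, adjusted p = 0.339). As means over cultures, these 2 lines were at 85.17 and 85.19 CPM, without separation. By raw totals of tested genes, Nf1/Cdkn2a dKO line 3 fell below every Nf1/p53 dKO line. It had 5492 of 67942182 counts, against 5695 of 69313463 in Nf1/p53 dKO line 2. Without Nf1/Cdkn2a dKO line 2, where Mafg was highest, its log2 fold change was 0.14, and with raw total counts 0.15. The summed small Maf level per kb was 38.9 ± 3.43 and 58.5 ± 3.38 CPM per kb (SD, n = 3 lines), and the share of Mafk in it was 19.0 ± 1.29% and 25.3 ± 1.20%. With Nfe2l2, 4 of the 10 members had every Nf1/Cdkn2a dKO line above every Nf1/p53 dKO line after TMM. This pattern was found in 14.8% of all genes tested, and Mafg lost it with raw totals. The opposite pattern was found in 1 member, Nfe2l3, and in 16.6% of all genes. Mafg shares 2.21% of its exon length with Sirt7 on the same strand, which had 10883 counts over all libraries. Mafk shares 4.33% of its own with Tmem184a on the opposite strand, which had 287 counts. The strand setting of the counting is not given in the sources used here.

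Keap1 was at 36.3, 38.4 and 59.1 CPM across the Nf1/p53 dKO lines and at 40.1, 41.5 and 43.3 CPM across the Nf1/Cdkn2a dKO lines. Nf1/p53 dKO line 3 was the highest of the 6, and the Nf1/Cdkn2a dKO lines were within 1.08-fold of each other. The log2 fold change of -0.10 ± 0.21 SE (adjusted p = 0.81) became 0.16 without Nf1/p53 dKO line 3 (adjusted p = 0.508), -0.23 and -0.18 without Nf1/p53 dKO lines 1 and 2, -0.07 without Nf1/Cdkn2a dKO line 1, and -0.24 with raw total counts. Keap1 shares 10.9% of its exon length with Gm16754 on the opposite strand, which had 147 counts over all libraries.

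**Figure D3:**
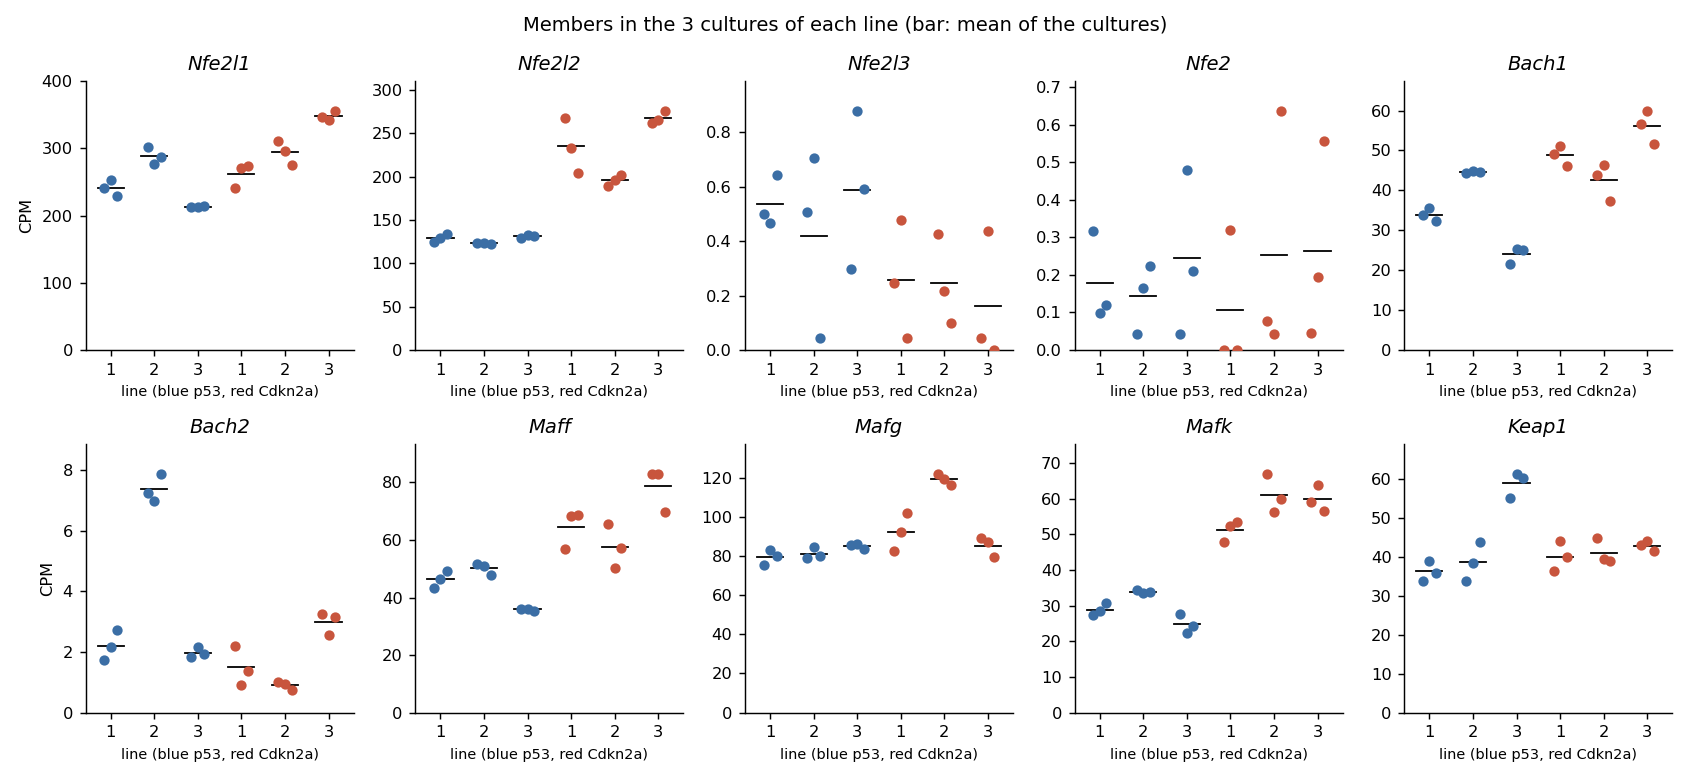
CPM of each gene in the 3 cultures of each line, Nf1/p53 dKO in blue and Nf1/Cdkn2a dKO in red, with a bar at the mean of the cultures and every axis starting at 0. The cultures of Nfe2l2 and Mafk do not overlap between genotypes, Bach2 is highest in Nf1/p53 dKO line 2, and Keap1 is highest in Nf1/p53 dKO line 3.

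Within the leukocyte and endothelial lists, markers moved with the genotype in both directions. The part of all the cell type markers in the differences between genotypes was not tested. Leukocyte markers summed to 1.40 to 1.90 CPM across the Nf1/p53 dKO lines and 11.7 to 19.9 CPM across the Nf1/Cdkn2a dKO lines, with Cd3e and Itgam at no more than 9 counts in any of the 6. The difference between the sums lay in Laptm5, at 0.0849 to 0.503 and 11.0 to 18.6 CPM. The other 7 markers summed to 1.27 to 1.39 and 0.736 to 1.30 CPM. Among these, Cd74 and Coro1a went the other way, each higher in every Nf1/p53 dKO line. Cd74 had 19, 40 and 29 counts against 9, 7 and 1, and Coro1a 63, 23 and 34 against 16, 17 and 19. Endothelial markers summed to 1.64 to 2.45 and 8.28 to 25.9 CPM. The difference between these sums lay in Esam, at 0.111 to 0.424 and 6.35 to 24.6 CPM. The other 4 summed to 1.28 to 2.02 and 0.641 to 1.93 CPM. Of these, Tek was called lower in the Nf1/Cdkn2a dKO (log2 -3.23, adjusted p = 0.0465). Pecam1 was also lower in each Nf1/Cdkn2a dKO line (log2 -1.29, adjusted p = 0.162), while Cdh5 was higher on average (log2 1.61, adjusted p = 0.221). Muscle markers summed to 25.8 to 319 CPM in the Nf1/p53 dKO and to at most 0.529 CPM in the Nf1/Cdkn2a dKO. Myod1 was the most abundant on average, but mostly in line 3, with 136, 19 and 14714 counts across the Nf1/p53 dKO lines. Myf5 was more even, with 2175, 1710 and 1999 counts across the Nf1/p53 dKO lines against 0, 0 and 1. Myf5 was called lower in the Nf1/Cdkn2a dKO (log2 -11.9, adjusted p = 0.00672), and Myod1 was not (adjusted p = 0.172). Epithelial markers, led by Krt8, spread from 2.67 to 740 CPM and 8.26 to 611 CPM within the genotypes. Schwann cell markers, led by Ngfr, summed to 3.45 to 68.5 and 1.35 to 2.85 CPM. The highest value was that of Nf1/p53 dKO line 2, the line with most Bach2, and Ngfr made 64.3 CPM of it. Without Ngfr, the other 6 markers summed to 2.92 to 7.23 and 1.32 to 2.47 CPM, and Foxd3 was highest in Nf1/p53 dKO line 1 (5.45 CPM). The paper states that the lines were passaged many times before analysis to ensure that only tumor cells remained, which was not tested here. In bulk samples, fewer cells of a type and less RNA per cell cannot be told apart.

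Within a genotype, the lines differed from each other beyond the spread of their cultures in most members, as in most genes tested. In the Nf1/p53 dKO, 6 of 9 members tested differed among the 3 lines, against 79.7% of 14199 genes tested, by edgeR's quasi-likelihood test on 9 cultures. The 3 that did not pass were Nfe2l2 (adjusted p = 0.181), Mafg (adjusted p = 0.22) and Nfe2l3 (adjusted p = 0.744). Of the 9 tested, Bach2 spread most among these lines, with a 3.68-fold ratio of the highest to the lowest, followed by Bach1 at 1.83-fold and Keap1 at 1.63-fold, while Nfe2l2 spread 1.07-fold.

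In the Nf1/Cdkn2a dKO, 6 of 8 members tested differed among the lines, against 54.2% of 13387 genes. Here Nfe2l2 differed (1.38-fold, adjusted p = 0.000768), highest in line 3 and lowest in line 2. Mafk (1.19-fold, adjusted p = 0.0569) and Keap1 (1.08-fold, adjusted p = 0.735) did not pass. Bach2 again spread most, at 3.32-fold. The order of the lines was not shared by the members, since Mafg was highest in Nf1/Cdkn2a dKO line 2, where Nfe2l2, Bach1 and Maff were lowest.

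The balance of Nfe2l2 against each other member was taken as a ratio per kb in each line. Nfe2l2 exceeded Keap1 by 4.38, 3.94 and 2.74-fold across the Nf1/p53 dKO lines and by 7.21, 5.83 and 7.71-fold across the Nf1/Cdkn2a dKO lines. The log2 ratio was 1.85 ± 0.35 and 2.78 ± 0.21 (SD, n = 3 lines), a difference of 0.93, and the genotypes did not overlap. Against its paralog Nfe2l1 the ratio was 0.768, 0.613 and 0.882 across the Nf1/p53 dKO lines and 1.28, 0.946 and 1.10 across the Nf1/Cdkn2a dKO lines, again without overlap.

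Against Bach1, Nfe2l2 was 6.21, 4.51 and 8.85-fold higher across the Nf1/p53 dKO lines and 7.81, 7.42 and 7.77-fold higher in the Nf1/Cdkn2a dKO lines. The genotypes overlapped, and the spread was narrower in the Nf1/Cdkn2a dKO, where the SD of the log2 ratio was 0.04 against 0.49; the difference in spread was not tested. The ratio to Bach2 was 152, 44.0 and 173 against 404, 559 and 234, with no overlap. Without Nf1/p53 dKO line 2, the difference in the log2 ratio fell from 0.29 to 0.048 for Bach1 and from 1.84 to 1.21 for Bach2, and without Nf1/p53 dKO line 3 that for Bach1 was 0.53. Among the small Mafs, the log2 ratio to Mafk differed by -0.14 and that to Maff by 0.24 between genotypes, both with overlap, and that to Mafg by 0.59 without overlap. With 1 line left out, the difference for Mafk ran from -0.28 to 0.029, changing sign without Nf1/Cdkn2a dKO line 2. That for Maff was 0.12 without Nf1/p53 dKO line 2 and 0.40 without Nf1/p53 dKO line 3, and that for Mafg 0.38 without Nf1/Cdkn2a dKO line 3. The ratio to Nfe2l3 differed by 2.08 without overlap and that to Nfe2 by 0.85 with overlap, and both rest on few counts in the denominator. The difference for Nfe2 was 0.41 without Nf1/Cdkn2a dKO line 1 and 1.32 as a mean over cultures.

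In all, 5 of the 9 ratios (to Nfe2l1, Nfe2l3, Bach2, Mafg and Keap1) separated the genotypes. By an exact two-sided permutation test of 3 lines against 3, each of these 5 had p = 0.1, the smallest p this design can give, and an adjusted p of 0.18 over the 9 ratios. The remaining exact p-values were 0.2 for Nfe2, 0.4 for Bach1 and Maff, and 0.7 for Mafk. All 9 ratios share Nfe2l2, so they are not independent of each other. Nfe2l2 alone also separated the genotypes, so its ratio to a member that changed little, such as Keap1 (log2 -0.10), can separate through Nfe2l2 itself. How many of all genes would separate as the denominator was not computed, so the count of 5 has no share to be set against.

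**Figure D4:**
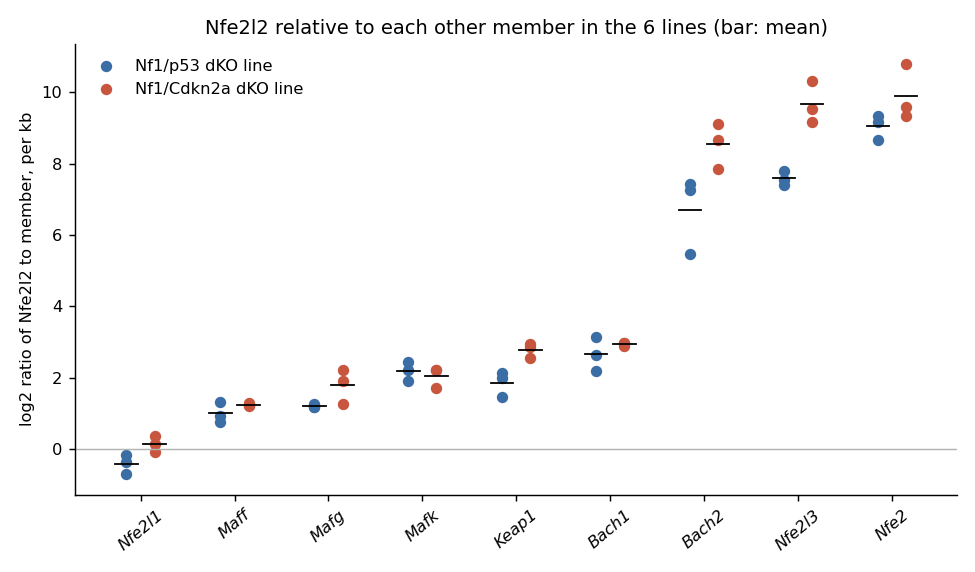
Log2 ratio of Nfe2l2 to each other gene, per kb of merged exon, 1 point per line with Nf1/p53 dKO in blue and Nf1/Cdkn2a dKO in red and a bar at the mean. The ratios to Maff, Mafk, Bach1 and Nfe2 overlap between genotypes, and those to Keap1, Mafg, Nfe2l1, Bach2 and Nfe2l3 do not.

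The genes around these factors were read from 6 lists, covering 89 genes in all, and counts are given for 5 of the lists. Of the 25 NRF2 targets, 1 was called higher and 0 lower, against 0.638% and 1.16% of all genes tested. Without adjustment, 10 of the 25 had a p under 0.05, against 22.4% of all genes. The median log2 fold change of the list was 0.37 against -0.02 over all genes tested. The called gene was Taldo1 (transaldolase of the pentose phosphate pathway), at 132, 108 and 137 CPM against 258, 258 and 266 CPM (log2 1.05 ± 0.14 SE, adjusted p = 0.0359). Its call was kept without Nf1/p53 dKO line 3 (adjusted p = 0.0499) and lost when any other line was left out (adjusted p up to 0.124). The highest log2 fold change in the list was that of Ephx1, an epoxide hydrolase, at 27.8, 16.8 and 5.33 CPM against 170, 77.9 and 188 CPM (log2 3.12 ± 0.65 SE, adjusted p = 0.0629). The lowest was that of Gclc, the catalytic subunit of glutamate-cysteine ligase, at 124, 120 and 147 CPM against 114, 69.2 and 78.5 CPM (log2 -0.58 ± 0.22 SE, adjusted p = 0.183). In 9 of the 25 targets every Nf1/Cdkn2a dKO line was above every Nf1/p53 dKO line, against 14.8% of all genes, and in 1 the reverse held, against 16.6%.

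Of the 8 genes that process or degrade NRF1, 1 was called higher and 0 lower, against 0.638% and 1.16% of all genes. The median log2 fold change was 0.17. Of the 8, 4 had an unadjusted p under 0.05, against 22.4% of all genes. In 4 every Nf1/Cdkn2a dKO line was above every Nf1/p53 dKO line, against 14.8%, and in 2 the reverse held, against 16.6%. The called gene was Syvn1 (HRD1), the ubiquitin ligase of the endoplasmic reticulum, at 52.2, 45.4 and 48.0 CPM against 78.6, 94.2 and 85.1 CPM (log2 0.83 ± 0.13 SE, adjusted p = 0.0465). The adjusted p was 0.0716 to 0.141 with any 1 of the 6 lines left out, so this call too was lost each time. Its partner Sel1l had the highest value of the list (log2 0.85 ± 0.25 SE, adjusted p = 0.12) and Hcfc1, a nuclear cofactor, the lowest (log2 -0.40 ± 0.14 SE, adjusted p = 0.175).

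Among 33 proteasome subunits and assembly genes, which are targets of NRF1, 0 were called in either direction and 3 had an unadjusted p under 0.05, against 22.4% of all genes tested. Their median log2 fold change was 0.06, between 0.70 ± 0.12 SE for Psmd8 (adjusted p = 0.0508) and -0.62 ± 0.16 SE for Psmb4 (adjusted p = 0.092). Of the 15 genes listed around the ligases that degrade NRF2 and Bach1, 0 were called, with a median of 0.13. In 3 of them the unadjusted p was under 0.05, against the same 22.4%. This list is wider than the ligases themselves and also holds proteins that bind Keap1. The highest was Dpp3, a protein that binds Keap1, at 76.8, 72.0 and 73.8 CPM against 122, 113 and 111 CPM (log2 0.64 ± 0.11 SE, adjusted p = 0.0511). The lowest was Amer1, also known as a Keap1 binding protein (log2 -0.67 ± 0.20 SE, adjusted p = 0.122).

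The list of 10 genes that Bach1 is known to repress holds mostly heme and iron genes, apart from Gclm, Slc7a11 and Me1. Several are also NRF2 targets. Of the 10, 0 were called, against 0.638% higher and 1.16% lower among all genes, and 3 had an unadjusted p under 0.05, against 22.4%. Their median log2 fold change was 0.33, the highest value was that of the iron exporter Slc40a1 (log2 2.5 ± 0.64 SE, adjusted p = 0.093) and the lowest that of Gclm (log2 -0.23 ± 0.21 SE, adjusted p = 0.56). Slc40a1 was scarce, with 36, 30 and 23 counts per line in the Nf1/p53 dKO and 90, 305 and 65 in the Nf1/Cdkn2a dKO.

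Maf, a large Maf factor, which unlike the small ones has a transactivation domain, was at 21.7, 28.2 and 18.5 CPM against 8.62, 1.93 and 30.4 CPM. The genotypes overlapped, with Nf1/Cdkn2a dKO line 3 the highest and line 2 the lowest of the 6 (adjusted p = 0.643).

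**Figure D5:**
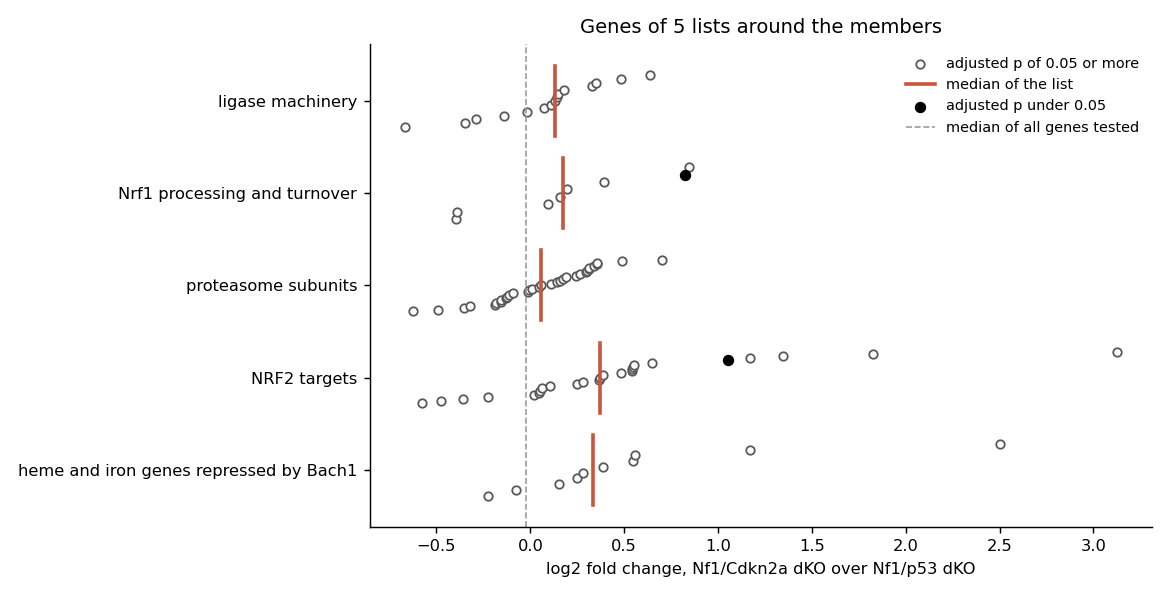
Log2 fold change between genotypes of the genes in 5 of the 6 lists, with filled points for an adjusted p under 0.05, a red bar at the median of the list and a dashed line at the median of all genes tested (-0.02). Taldo1 and Syvn1 are the filled points, and the large Maf factors are not drawn.

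The genes with the pattern most like that of Nfe2l2 over the 6 lines, among 9135 genes with a mean of at least 10 CPM, were Arhgef17 (Pearson r = 0.996 of log2 CPM), B3gnt1 (r = 0.995) and Tnfrsf1a (r = 0.994). Arhgef17 was at 124, 131 and 131 CPM across the Nf1/p53 dKO lines and at 281, 216 and 334 CPM across the Nf1/Cdkn2a dKO lines, which is the order of Nfe2l2 in the latter. The genes most like Mafk were Dot1l (r = 0.999), Csnk1g1 (r = 0.996) and Fgf10 (r = 0.996). Dot1l was at 64.1, 72.3 and 59.2 CPM against 95.4, 106 and 108 CPM. These are the highest of many correlations over 6 lines, which share the genotype, and are given as a description.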

How the data were processed

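RNA-seq was measured in 18 libraries, from 3 cultures of each of 6 lines. The deposited values are raw counts of reads for each gene, with no normalization by the authors. The submitters' processing notes name CASAVA, STAR 2.5, DESeq2 1.14.1 and the build GRCm38 (mm10); the counting tool and strand setting are not given in the sources used here. Counts were summed per line, filtered with edgeR's filterByExpr (minimum count 10, total 15), scaled by TMM and tested by quasi-likelihood in edgeR, with p-values adjusted by Benjamini-Hochberg over all genes (edgeR 4.0.16, limma 3.58.1, DESeq2 1.42.0, R 4.3.3, Python 3.11.15). Differences among lines used the 9 cultures of a genotype, with the p-value then covering only the spread between cultures. Ratios added 0.5 to each summed count. No culture repeated another within sampling noise. The code was tested on simulated counts. The members and lists were chosen with earlier results of these data known. Genes named are the 10 members, the targeted genes, the called genes and the highest and lowest fold change of each list, the most abundant marker of each marker list, and the 3 genes most like Nfe2l2 and Mafk. Overlap partners, markers with few counts and genes singled out beyond these were named after their values were seen. Line numbers did not pair the genotypes. Values of a few genes are not reported here.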

Additional observations from a re-analysis of the deposited data

Results flagged for a closer look

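No culture of any of the 10 genes lay far enough from the others of its genotype to be singled out, in 20 groups of 9 cultures tested with Dixon's criterion.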

How the results depend on the processing

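Every alternative fit of Mafk, Nfe2l2, Nfe2l1, Maff, Mafg, Bach1, Bach2 and Nfe2l3 kept its direction. The number of members called higher was 1 and became 6 with the 18 cultures as separate samples in edgeR or DESeq2, and 2 with limma-voom and the line as a random effect, with DESeq2 on the 6 lines and with no filter. It became 0 with at least 10 counts in every line and with raw total counts without TMM, a scaling chosen after seeing the data that moved the median log2 fold change of all genes to -0.16, and 0 in each fit that left out 1 line. The number called lower was 0 and became 1 in edgeR or DESeq2 on the 18 cultures. Treating cultures as samples ignores that they share a tumor.

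With the 18 cultures as samples the genes newly called, given as log2 fold changes in edgeR and DESeq2, were Nfe2l2 (0.86 and 0.86), Nfe2l1 (0.28 and 0.29), Bach1 (0.53 and 0.53), Maff (0.60 and 0.60), Mafg (0.27 and 0.27) and, lower, Bach2 (-1.10 and -1.10). Nfe2l2 was also called with limma-voom (0.84), DESeq2 on the 6 lines (0.88) and no filter (0.88). Mafk was no longer called with raw total counts (0.86) or at least 10 counts in every line (0.97), and over the fits without 1 line ran from 0.89 to 1.12. Nfe2 reversed to -0.049 with raw total counts. Over the fits without 1 line it ran from -0.17 to 0.42, and it reversed without Nf1/p53 dKO line 2 (-0.06) and Nf1/Cdkn2a dKO lines 2 (-0.03) and 3 (-0.17). Keap1 ran from -0.23 to 0.16 and reversed without Nf1/p53 dKO line 3 (0.16). The difference in the log2 ratio of Nfe2l2 to Mafk reversed to 0.029 without Nf1/Cdkn2a dKO line 2 (range -0.28 to 0.029).

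Line numbers and culture numbers share only a number (correlations of deviations -0.133 to -0.0848 for lines). With the line number as a replicate block, 0 members were called higher (Mafk log2 1.00, adjusted p = 0.129) and 0 list genes. With the culture number as a replicate block on the 18 cultures, 6 members were called higher and 1 lower (Nfe2l2 0.86, Nfe2l1 0.28, Bach1 0.52, Maff 0.60, Mafg 0.27 and Bach2 -1.11), with 32 list genes higher and 11 lower.

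Genes of the 6 lists called higher numbered 2, and 34 in edgeR or DESeq2 on the 18 cultures, 14 with limma-voom, 8 with DESeq2 on the 6 lines, 4 with no filter, 1 with raw total counts and 0 to 1 without 1 line. Those called lower numbered 0, and 13 and 14 in edgeR and DESeq2 on the 18 cultures, 4 with limma-voom and 2 with DESeq2 on the 6 lines. The counts of members that differ between lines stayed at 6 in the Nf1/p53 dKO and ran from 4 to 7 in the Nf1/Cdkn2a dKO. The causes were not tested. Nfe2 and Nfe2l3 are limited by depth, at 6 to 43 counts per line.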
